A study of Mus musculus with 3 samples.

Results

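The clustered histone genes are the mouse genes whose symbols begin with Hist1h, Hist2h, Hist3h or Hist4. They were chosen by symbol alone, and 67 of the 31053 genes listed in the count matrices carried such a symbol. They comprised 6 linker H1, 18 H2A, 18 H2B, 12 H3 and 13 H4 genes. The libraries came from skin of C57BL/6 mice aged 7 weeks in a study of hair growth, with 1 library each for the agents control, Shi-Bi-Man (a natural product) and metformin. Counts of unique molecular identifiers (UMIs, 1 per captured RNA molecule) in single cells were used from control and metformin. The Shi-Bi-Man library was not analysed here. No dose, route, number of animals or sex was given in the labels, and the label on extraction names cynomolgus monkey and organs although the gene identifiers are those of mouse. With 1 library per agent there is no replicate, so no test between agents was made, agent and library cannot be told apart, and every interval below is an exact 95% interval that covers counting error only.

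Core histones H2A, H2B, H3 and H4 form the nucleosome around which DNA is wound, and linker H1 binds the DNA between nucleosomes. The genes for them lie in clusters and are transcribed mostly while DNA is being copied in S phase, when new chromatin must be packed. Their mRNAs as a rule lack introns and a poly(A) tail and end instead just after a short stem-loop, which is bound by the stem-loop binding protein Slbp. Some of these genes also make polyadenylated mRNA outside S phase. Another pair of genes, Top2a and Pcna, was followed beside them. Top2a encodes the topoisomerase that untangles DNA and is most abundant from late S phase to mitosis, and Pcna encodes the sliding clamp of the DNA polymerases and is known as an S phase gene.

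The control library held 12108 barcodes and 71345558 UMIs, and the metformin library 12092 barcodes and 92341365 UMIs. After filtering and removal of called doublets, 10989 control cells with a median of 4158 UMIs and 10777 metformin cells with a median of 6620 UMIs remained. The libraries shared 41 cell barcodes, 0.339% of those of the control library. Cells were grouped into 35 clusters without using the histone genes, Top2a or Pcna, and named from marker genes as "-like" classes, with 3 clusters left unnamed. The hair matrix-like class held 31 control and 1490 metformin cells, so values over all keratinocyte-like cells are also given without it.

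Of the 67 genes, 54 lay on chromosome 13 (21715763 to 23934851, GRCm38), 10 on chromosome 3 (96219865 to 96270132), 2 on chromosome 11 and 1, Hist4h4, on chromosome 6. The pattern of the histone 3′ stem-loop was found in the annotated transcripts of 46 of them, against 7 of 21834 other genes with a transcript (0.0321%). The 16-base form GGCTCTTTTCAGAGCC occurred in 26 of the 67, none of them an H4 gene, and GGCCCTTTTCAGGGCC in 7, each an H4 gene. In 23 genes the annotated transcript ended within 100 bases of the stem-loop, and in 23 it ran on for more than 100 bases. A further 4 had no stem-loop but an untranslated end of over 100 bases, and 17 had no stem-loop and a short or no annotated untranslated end. The windows below show 6 genes among those with most UMIs that have nearly the same stem-loop but different annotated ends, and Hist4h4 for the usual form of H4 genes. Capitals mark the stem-loop, and each window reads 5′ to 3′ on the RNA strand.
Hist1h2ap (H2A): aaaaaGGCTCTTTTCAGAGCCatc
Hist1h2ae (H2A): acaaaGGCTCTTTTCAGAGCCatt
Hist1h1e (H1): ccaaaGGCTCTTTTCAGAGCCacc
Hist1h1c (H1): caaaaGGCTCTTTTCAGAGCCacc
Hist3h2a (H2A): ccaaaGGCTCTTTTCAGAGCCacc
Hist1h4i (H4): ttaaaGGCCCTTTTTAGGGCCacc
Hist4h4 (H4): acaaaGGCCCTTTTCAGGGCCcac
The annotated transcript of Hist1h2ap (chr13:21833026-21833507, minus strand) ended 3 bases after its stem-loop. The transcript of Hist1h2ae (chr13:23570517-23571220, minus strand) ran 151 bases beyond it and held the polyadenylation signal AATAAA near its end. Hist1h1c (chr13:23738808-23740367, plus strand) ran 840 bases beyond it and Hist3h2a (chr11:58954685-58956830, plus strand) 1643 bases, both with AATAAA near the end. Hist1h1e ran 1153 bases beyond it without that signal within the last 50 bases. Hist1h2bc (chr13:23684199-23692908, plus strand) was annotated with 2 exons, an untranslated end of 742 bases and no stem-loop, and Hist1h1b (chr13:21779883-21780625, minus strand) with no untranslated end at all. The annotation used here was GENCODE M21, which may differ from the authors'.

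Promoters of 61 of the 67 genes were matched in RefSeq. In the 300 bases around the start (250 before and 50 after), the CCAAT box was found on either strand in 52 of the 61 (85.2%), against 37.4% of 32851 promoters. TATAAA was found in 34 (55.7%, against 13.6%) and the octamer ATTTGCAT in 13 (21.3%, against 1.74%). The octamer occurred in 7 of 18 H2A and 6 of 16 H2B promoters and in none of the H1, H3 or H4 promoters, and CCAAT in 3 of 12 H4 promoters and in all of the other families. Windows of neighbouring H2A and H2B genes, such as Hist1h2ae and Hist1h2bg, overlap, so a single match can be counted for both genes. In the 100 bases upstream of the start the octamer stood only in H2B genes: Hist2h2bb, Hist1h2bm, Hist1h2bg, Hist1h2bk and Hist1h2bb. The motifs were searched one by one, their matches may overlap by a few bases, and a match is a description of the sequence. The 100 bases upstream of the annotated start are shown for genes whose levels are compared below, with CCAAT (or ATTGG, its complement), TATAAA and ATTTGCAT in capitals. Each reads 5′ to 3′ on the gene's strand in GRCm38.p6.
Hist1h2ae, chr13:23571221-23571320, minus strand: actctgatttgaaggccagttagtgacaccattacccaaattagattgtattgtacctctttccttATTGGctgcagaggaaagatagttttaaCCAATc
Hist1h1b, chr13:21780626-21780725, minus strand: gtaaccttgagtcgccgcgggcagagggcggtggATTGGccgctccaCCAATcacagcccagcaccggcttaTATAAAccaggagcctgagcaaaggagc
Hist1h1c, chr13:23738707-23738806, plus strand: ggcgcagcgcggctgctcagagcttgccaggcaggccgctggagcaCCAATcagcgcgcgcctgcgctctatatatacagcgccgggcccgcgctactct
Hist3h2a, chr11:58954585-58954684, plus strand: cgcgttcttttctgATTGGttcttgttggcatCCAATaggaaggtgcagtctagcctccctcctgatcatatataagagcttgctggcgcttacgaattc
Hist1h2bm, chr13:21721944-21722043, plus strand: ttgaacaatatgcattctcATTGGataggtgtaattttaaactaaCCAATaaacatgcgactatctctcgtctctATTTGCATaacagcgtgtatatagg
A CCAAT box on each strand stands in the stretches of Hist1h2ae, Hist1h1b, Hist3h2a and Hist1h2bm and a single one in that of Hist1h1c. TATAAA stands only in that of Hist1h1b and the octamer only in that of the H2B gene Hist1h2bm, of these 5. No promoter entry was matched for Hist1h2bc.

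In the control library 64 of the 67 genes had at least 1 UMI and in the metformin library 63. No UMI of Hist1h2ba, Hist1h2aa or Hist1h2bq was found in either library, which allows a level of up to 0.0449 UMIs per 1000000 UMIs (CPM) in control and 0.0363 CPM in metformin. For Hist1h2bq this limit covers only UMIs assigned to it, since 96.8% of its 60-base stretches also occur in another gene of the set. Hist2h2aa2 had 3 UMIs in control and 0 in metformin, and 100% of its stretches are shared in this way. At least 100 UMIs were reached by 29 genes in control and 52 in metformin. Together the genes held 29123 UMIs in control, 436 CPM (431.1 to 441.2), and 101510 in metformin, 1229 CPM (1222 to 1237). The level of 63 genes was higher in metformin and that of 1, Hist2h2aa2, was lower. Few genes carried most of these UMIs, since the highest 3 held 59.0% of the UMIs in control and 59.9% in metformin and the highest 12 held 85.6% and 83.9%. H2A genes held 46.5% and 55.3% of the UMIs, H2B genes 25.4% and 18.7%, H1 genes 17.6% and 14.6%, H4 genes 6.99% and 7.76%, and H3 genes 3.52% and 3.70%. How fully mRNAs without a poly(A) tail were captured was not tested. Shares, ranks and levels here and below therefore describe captured UMIs and not mRNA abundance.

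The gene with most UMIs was Hist1h2ap, an H2A gene, with 7059 UMIs in control (106 CPM) and 33378 in metformin (404 CPM). Hist1h2ae, also H2A, had 4295 UMIs (64.3 CPM) and 17205 (208 CPM). Hist1h2bc, an H2B gene, had 5837 UMIs (87.4 CPM) and 10266 (124 CPM), so it stood above Hist1h2ae in control and below it in metformin. Among linker genes, Hist1h1c had 1956 and 3583 UMIs, Hist1h1e 1552 and 4937, Hist1h1b 1098 and 3734, and Hist1h1d 400 and 1963. Hist1h4i led the H4 genes with 584 and 3532 UMIs. Hist3h2a had 1063 and 1630 UMIs, Hist2h2aa1 523 and 1426, Hist1h2bj 280 and 2077, and Hist3h2ba 279 and 1397. Top2a had 2880 and 9125 UMIs and Pcna 3682 and 6536. Each molecule was counted by UMI in a 3′ protocol, so counts were not divided by gene length. Copies of these genes are alike: 92.9% of the 60-base stretches of Hist1h2ap, 89.0% of those of Hist2h2aa1 and over 50% of those of 29 genes also occur in another gene of the set, so the division of UMIs among near-identical copies is uncertain.

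**Figure D1:**
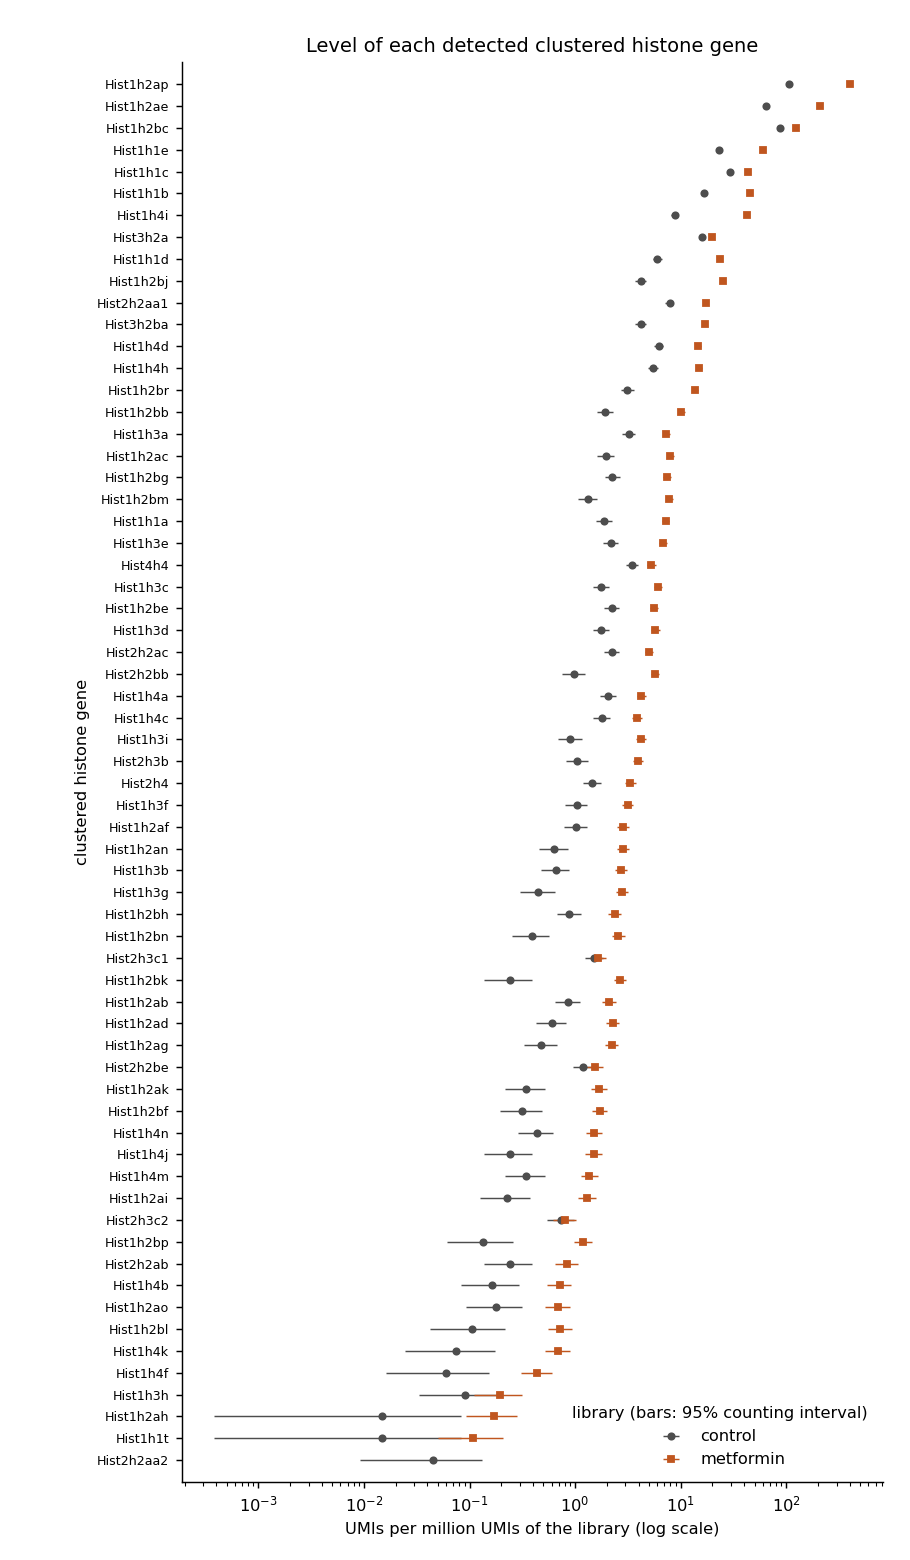
Level of each of the 64 detected clustered histone genes in the control library (circles) and the metformin library (squares), in CPM of the library on a log scale, with 95% counting intervals as bars. Levels span from single UMIs to 404 CPM for Hist1h2ap in metformin, and the squares lie to the right of the circles for 63 genes.

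The summed level of the 67 genes differed between cell classes. It ran from 130 CPM in fibroblast-like to 877 CPM in sebaceous gland-like cells of the control library, a range of 6.76 times, and from 252 CPM in fibroblast-like to 1912 CPM in melanocyte-like cells of the metformin library, a range of 7.60 times. T cell-like cells had 838 CPM (802 to 875) in control and 1434 CPM (1387 to 1482) in metformin. Langerhans cell-like cells had 711 and 1733 CPM, dendritic cell-like cells 522 and 893 CPM, and macrophage-like cells 434 and 564 CPM. Pericyte or smooth muscle-like cells had 289 and 498 CPM, vascular endothelium-like 273 and 323, lymphatic endothelium-like 235 and 341, and dermal papilla-like 213 and 371 CPM. The dermal papilla-like class lay mostly in different clusters in the libraries, a cluster led by Slc26a7 and Notum with 269 control and 17 metformin cells and another led by Hhip, Mdk and Rspo3 with 81 and 337. Within control, the intervals of T cell-like and sebaceous gland-like cells overlapped, as did those of the Schwann cell-like, Langerhans cell-like and melanocyte-like classes. The melanocyte-like level rested on 25 control and 37 metformin cells. The level was higher in metformin in 12 of 13 classes, with intervals apart in 9, and lower in Schwann cell-like cells (730 and 554 CPM), where the intervals overlapped.

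Inside the keratinocyte-like cells the range was wider. Cells named hair matrix-like, a class that also takes in the hair shaft and inner root sheath, had 2611 CPM in control and 2653 CPM in metformin. Hair follicle stem or germ-like cells had 1158 and 1499 CPM and basal epidermis-like cells 749 and 1159 CPM. The basal epidermis-like class includes a cluster of 241 control and 246 metformin cells led by Vsnl1, Defb1, Sostdc1, Gata6 and Sox9, with no basal keratin gene among its 10 leading genes, and without it the class had 775 and 1193 CPM. Upper hair follicle-like cells had 265 and 350 CPM, and suprabasal epidermis-like cells, which have left the dividing layer, had 159 and 186 CPM. The highest subclass stood 16.4 times above the lowest in control and 14.3 times in metformin. The order of these subclasses was the same in both libraries. Top2a followed it in part: 129 and 205 CPM in hair matrix-like, 113 and 141 CPM in basal epidermis-like, 80.8 and 126 CPM in hair follicle stem or germ-like, and 4.75 and 8.29 CPM in suprabasal epidermis-like cells.

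**Figure D2:**
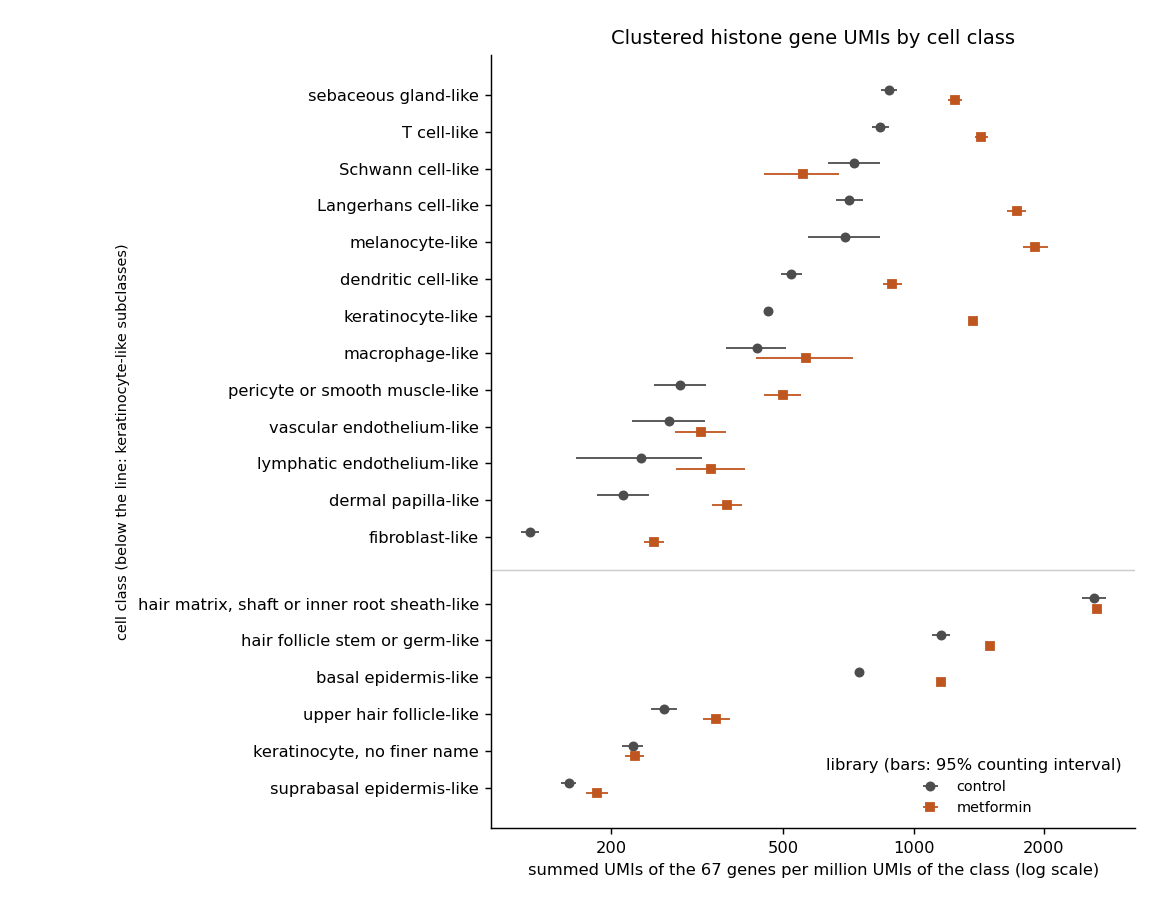
Summed UMIs of the 67 clustered histone genes in CPM of each cell class, on a log scale, in the control (circles) and metformin (squares) libraries with 95% counting intervals as bars. Keratinocyte-like subclasses are below the line, where hair matrix-like cells stand at 2611 and 2653 CPM and suprabasal epidermis-like cells at 159 and 186 CPM.

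Which histone gene led depended on the class. In control, Hist1h2bc had most UMIs in 9 of 13 classes, Hist1h2ap in 3 and Hist1h1c in 1, and in metformin Hist1h2bc led in 6, Hist1h2ap in 6 and Hist1h1c in 1. In suprabasal epidermis-like cells, Hist1h2bc, Hist1h1c and Hist3h2a together held 69.3% of the histone UMIs in control and 60.6% in metformin, whereas Hist1h2ap and Hist1h2ae held 2.78% and 8.76%. In basal epidermis-like cells the first group held 15.7% and 11.5% and the second 54.3% and 57.0%, and in hair matrix-like cells 10.6% and 9.51% against 58.3% and 52.1%. Pericyte or smooth muscle-like cells of the control library had 0 UMIs of Hist1h2ap and of Hist1h2ae, which allows up to 4.14 CPM each, beside 93 UMIs of Hist1h2bc (128 CPM). In metformin the same class had 64 UMIs of Hist1h2ap (79.0 CPM), 30 of Hist1h2ae (37.0 CPM) and 134 of Hist1h2bc (165 CPM). Schwann cell-like cells had 0 UMIs of Hist1h2ap in control, which allows up to 10.6 CPM, and 1 in metformin, but 283 and 223 CPM of Hist1h2bc and 138 and 141 CPM of Hist1h1c.

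Hist1h2bc itself varied less between subclasses. It stood at 83.3 and 87.4 CPM in basal epidermis-like, 77.6 and 73.3 CPM in suprabasal epidermis-like and 197 and 175 CPM in hair matrix-like cells. Hist1h2ap stood at 242 and 428 CPM, 2.38 and 10.9 CPM, and 1083 and 915 CPM in the same subclasses. Levels of Hist1h2ap in basal epidermis-like and suprabasal epidermis-like cells were far apart in both libraries, while those of Hist1h2bc were within 1.5 times of each other. Hist1h2bc was highest in control in sebaceous gland-like cells (298 CPM) and in metformin in melanocyte-like cells (655 CPM). Hist3h2ba, an H2B gene, had 59.3 and 57.1 CPM in hair matrix-like cells and 4.26 and 6.40 CPM in basal epidermis-like cells, and in control it was highest in Schwann cell-like cells with 106 CPM from 30 UMIs. Hist3h2a stood at 64.5 and 53.9 CPM in T cell-like cells and at 12.5 and 11.9 CPM in suprabasal epidermis-like cells.

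Shares of cells with a UMI were compared after thinning every cell to 1500 UMIs, leaving out shallower cells. Hist1h2ap was then seen in 56.7% of 30 control and 44.3% of 1478 metformin hair matrix-like cells, in 9.75% and 13.4% of basal epidermis-like cells and in 0.409% and 0.896% of suprabasal epidermis-like cells. Free RNA in droplets gives UMIs in cells that do not express a gene. The basal and hair matrix shares were above that of suprabasal epidermis-like cells, which should lack an S phase gene. Suprabasal epidermis-like cells had median depths of 12418 and 11083 UMIs before thinning, basal epidermis-like cells 8326 and 7838 and hair matrix-like cells 11697 and 10149. Thinning keeps a smaller part of the free RNA of a deeper cell. The suprabasal share may therefore understate the background in the shallower classes. In pericyte or smooth muscle-like cells Hist1h2ap was seen in 0 of 153 control cells, which allows a share of up to 1.96% of cells with a UMI at this depth and says nothing of cells that express the gene, and in 1.23% of 163 metformin cells. Hist1h2bc was seen in 8.37% and 9.28% of basal epidermis-like and in 10.4% and 8.24% of suprabasal epidermis-like cells, so no class that should lack it served as a background. Unthinned, 50.4% of control and 69.7% of metformin cells had at least 1 UMI of a clustered histone gene.

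A basal epidermis-like cluster of 244 control and 547 metformin cells was led by Ube2c, Anln, Cdk1, Birc5 and Top2a, genes of dividing cells, and had Hist1h2ae among its 10 leading genes. It had the highest summed histone level of the clusters with at least 50 cells, 2686 CPM in control and 3289 CPM in metformin. Hist1h2ap reached 1012 and 1341 CPM there, Hist1h2ae 689 and 731 CPM, and Hist1h1b 171 and 166 CPM. Across 28 clusters in control and 27 in metformin, the log level of Top2a went with that of Hist1h2ae (Pearson's r 0.966 and 0.964), Hist1h1b (0.965 and 0.966) and Hist1h2ap (0.958 and 0.938). With the summed histone level r was 0.883 and 0.847. With Hist1h2bc it was 0.387 and 0.323, with Hist1h1c 0.187 and 0.137, with Hist3h2a 0.143 and 0.253 and with Hist3h2ba 0.126 and 0.180. These values describe clusters that share a library and differ in depth, and a pseudocount of 10 CPM was added.

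Cell by cell, histone UMIs went with Top2a more than with Pcna. Keratinocyte-like cells were thinned to 1500 UMIs, which kept 4130 of 4152 control and 6444 of 6485 metformin cells, and were divided by whether a UMI of Top2a or Pcna was seen. In control, 23.7% (22.3 to 25.1) of the 3718 cells with neither had a histone UMI, 33.1% (27.2 to 39.3) of the 245 cells with Pcna only, 68.1% (59.6 to 75.8) of the 138 with Top2a only and 86.2% (68.3 to 96.1) of the 29 with both. In metformin the shares were 37.6% (36.3 to 39.0) of 5251 cells, 55.0% (50.7 to 59.1) of 555, 85.2% (81.8 to 88.1) of 519 and 93.3% (87.2 to 97.1) of 119. The order of the states was the same in both libraries. Top2a-only cells exceeded cells with neither by 44.4 percentage points in control and 47.5 in metformin, and Pcna-only cells by 9.37 and 17.3 points. Without the hair matrix-like cells, the Pcna-only difference was 9.09 points (3.07 to 15.5) in control and 9.98 (4.54 to 15.6) in metformin. The mean number of histone UMIs per thinned cell was 0.430 with neither, 1.03 with Pcna only, 3.62 with Top2a only and 5.83 with both in control, and 1.12, 2.61, 5.94 and 7.10 in metformin. Median depth before thinning was 9277, 9615, 13173 and 12720 UMIs in these control states and 8139, 9254, 11918 and 12072 in metformin, and its part in the differences that remain after thinning was not tested.

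**Figure D3:**
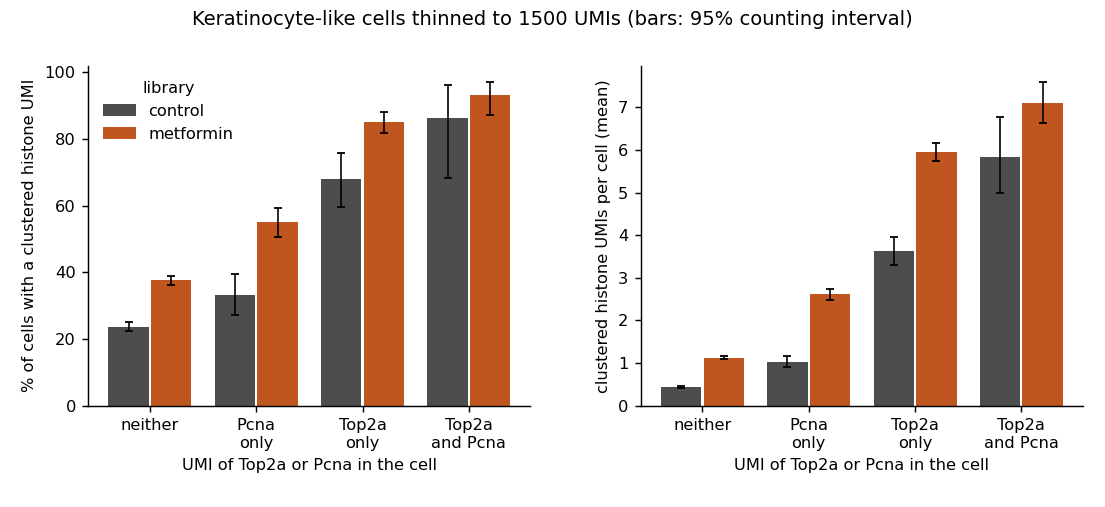
Keratinocyte-like cells thinned to 1500 UMIs, divided by a UMI of Top2a or Pcna: the percentage of cells with a clustered histone UMI (left) and the mean clustered histone UMIs per cell (right), with 95% counting intervals as bars. In control the mean is 0.430 with neither and 5.83 with both, and in metformin 1.12 and 7.10.

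The mean number of histone UMIs did not rise steadily with Top2a. Mean histone UMIs were 0.467 in control cells without a Top2a UMI, 3.54 with 1, 5.37 with 2 and 4.38 with 3 or more, the last from 16 cells. In metformin they were 1.27, 5.71, 7.77 and 5.60, the last from 48 cells. Cells with 3 or more Top2a UMIs thus had fewer histone UMIs on average than cells with 2 in both libraries. The intervals overlapped in control (3.41 to 5.53 and 4.63 to 6.20) and were apart in metformin (4.95 to 6.32 and 7.31 to 8.24). They do not cover the spread between cells, and the means come from 1 random thinning. The share of cells with a histone UMI was 24.3%, 67.2%, 77.1% and 87.5% over these bins in control. In metformin it was 39.3%, 84.2%, 93.6% and 89.6%. A Top2a UMI was seen in 4.04% of control and 9.90% of metformin keratinocyte-like cells, and these cells held 26.6% and 34.8% of the histone UMIs. Cells with neither gene held 63.4% and 52.3%. The genes divided in this respect, too: Top2a-positive cells held 40.1% and 41.7% of the UMIs of Hist1h2ap and 49.7% and 43.5% of those of Hist1h2ae, against 6.03% and 13.8% for Hist1h2bc. Over single thinned cells, Pearson's r of the summed histone UMIs was 0.375 and 0.378 with Top2a and 0.160 and 0.165 with Pcna, while r between Top2a and Pcna was 0.0716 and 0.0881. Between Hist1h2ap and Hist1h2ae, whose near-identical stretches leave their UMIs in part uncertain, r was 0.596 and 0.640. Cells of 1 library share their source, so these values are descriptions.

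By gene, the difference between Top2a-positive and Top2a-negative cells was large for some and near 1 for others. Hist1h2ap had 962 CPM in positive and 60.6 CPM in negative control cells, a ratio of 15.9 (13.4 to 18.8), and 1604 and 246 CPM in metformin, a ratio of 6.52 (6.10 to 6.97). Hist1h2ae had ratios of 23.5 (19.2 to 28.8) and 7.02 (6.38 to 7.71), and Hist1h1b had 21.7 and 7.40 (6.12 to 8.93). These 3 were the highest in control among genes with at least 20 UMIs. Hist2h2bb, an H2B gene with 3 UMIs in thinned control cells, had a ratio of 6.50 in metformin (3.93 to 10.6), and Hist1h3c, an H3 gene with few UMIs in control, 6.07. Hist1h4i had 8.48 and 4.14 and Hist1h1e 4.17 and 4.11. At the other end, Hist1h2bc had 128 and 83.9 CPM in control, a ratio of 1.52 (1.03 to 2.18), and 167 and 115 CPM in metformin, a ratio of 1.45 (1.22 to 1.72). Hist1h1c had 2.28 (1.15 to 4.12) and 1.37, and Hist3h2a 0.586 (0.0698 to 2.19) and 1.77 (1.11 to 2.70). The H4 genes Hist4h4 and Hist1h4a had 2.04 and 2.66 in metformin.

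In control, 16 of the 67 genes had the 20 UMIs needed in thinned cells and 13 of them had a ratio of at least 2, and in metformin 40 of 43. Over all genes tested, 10.7% in control and 8.06% in metformin had such a ratio. A gene with few UMIs reached 20 mainly through the cells where it was high, so the genes measured are not the whole set. At full depth, 36 of 44 in control and 55 of 60 in metformin had a ratio of at least 2, against 9.21% and 9.86% of all genes. The ratio of Hist1h2ap at full depth was 70.0 in control and 17.5 in metformin, and that of Hist1h2ae 93.9 and 24.0. At full depth a deeper cell is more likely to show a Top2a UMI. Hist1h2bc kept near its thinned value, at 1.51 and 1.43, and Hist1h1c had 1.61 and 1.62. Without the hair matrix-like cells, 11 of 14 thinned genes in control and 25 of 28 in metformin had a ratio of at least 2, against 10.8% and 8.71% of all genes. By a UMI of Pcna in place of Top2a, 11 of 16 thinned genes in control and 22 of 43 in metformin had a ratio of at least 2, against 5.2% and 4.97% of all genes.

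At full depth, 5 genes had a ratio under 2 in both libraries: Hist1h2bc, Hist1h1c, Hist3h2a and the H3 genes Hist2h3c1 and Hist2h3c2. Their values were 1.51 and 1.43 for Hist1h2bc, 1.61 and 1.62 for Hist1h1c, 1.06 and 1.99 for Hist3h2a, 0.541 and 1.70 for Hist2h3c1, and 0.902 and 1.25 for Hist2h3c2. All 5 were annotated with an untranslated end of over 100 bases, which 30 of the 67 genes have, and 3 of the 5 had AATAAA near that end, which 14 of the 67 have. Hist1h4a, Hist2h2be and Hist4h4 were under 2 in control only. By annotated end, the median log2 ratio was 4.91 in control and 3.43 in metformin for genes that end at the stem-loop (13 and 22 of 23 measured). It was 4.76 and 3.36 for those with no stem-loop and a short or no untranslated end (7 and 13 of 17 measured). It was 2.66 and 2.18 for those that run on past the stem-loop (21 and 22 of 23 measured). For those with a long untranslated end and no stem-loop it was 0.59 and 1.15 (3 of 4 measured in each library). A gene with few UMIs was measured mainly through the cells where it was high. The medians of groups with many unmeasured genes, above all in control, may therefore be too high. The part of this in the differences between the groups was not tested. In thinned cells the values were 3.25 in control and 2.38 in metformin for genes that end at the stem-loop (5 and 14 measured), 2.51 and 1.92 for those that run on past it (9 and 19 measured), 4.44 and 2.68 for those with no stem-loop and a short or no untranslated end (1 and 8 measured), and 0.61 and 1.45 for those with a long untranslated end and no stem-loop (1 and 2 measured). In thinned cells without the hair matrix-like ones, genes that end at the stem-loop stood at 2.19 and 2.84 and those that run on past it at 2.10 and 2.63, so these groups were nearer to each other than at full depth. At full depth, over genes with AATAAA near the end it was 0.93 and 1.79, and over those without 3.69 and 3.02, beside 0.07 and 0.09 over all genes tested. Which transcript end was captured in these cells was not tested.

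**Figure D4:**
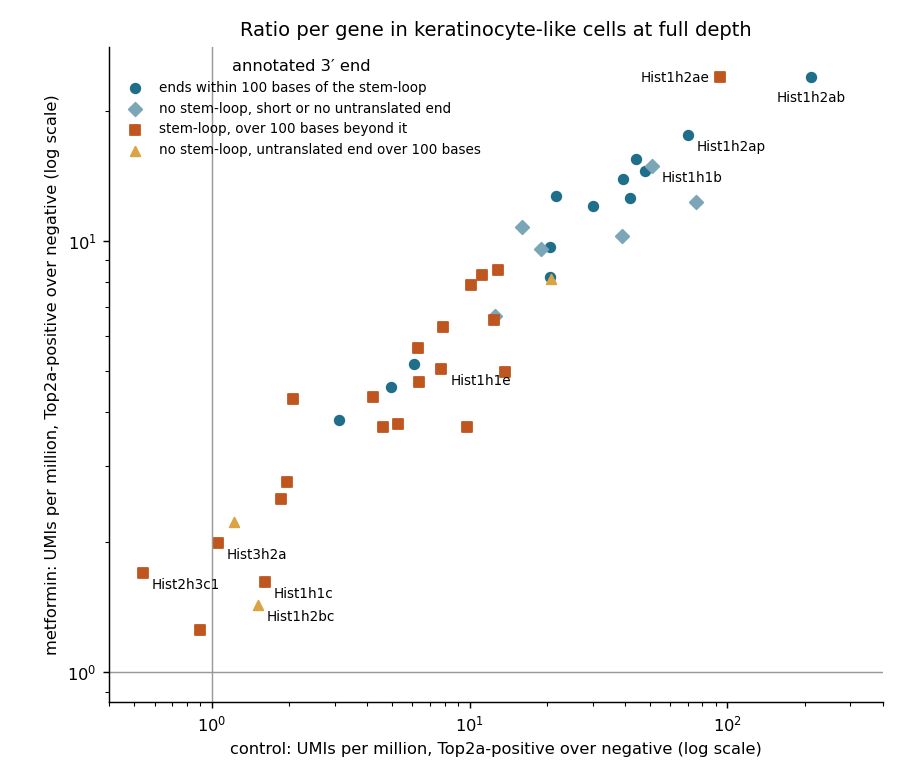
Ratio of the CPM in Top2a-positive over Top2a-negative keratinocyte-like cells at full depth, control on the horizontal and metformin on the vertical axis (both log scales), for the 43 clustered histone genes with at least 20 UMIs and a ratio above 0 in both libraries, marked by annotated 3′ end. Of these, 35 have a ratio of at least 2 in both libraries, 33 have the higher ratio in control, and Hist1h2bc, Hist1h1c and Hist3h2a lie low; the point of Hist1h2ab rests on 39 control UMIs in positive cells against 1 in negative cells.

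Set directly against each other, cells with Pcna only had lower histone levels than cells with Top2a only. These states share cells with the comparison above, so the values stand side by side and are not a second line of evidence. Hist1h2ap had 223 CPM in Pcna-only and 913 CPM in Top2a-only control cells, a ratio of 0.244 (0.186 to 0.318), and 599 and 1554 CPM in metformin, a ratio of 0.386 (0.347 to 0.428). Hist1h2ae had ratios of 0.139 (0.0936 to 0.201) and 0.412 (0.354 to 0.477), and Hist1h1b 0.141 and 0.308. Hist1h1d and Hist1h4d, an H4 gene, had 0.371 and 0.360 in metformin. Among genes with at least 50 UMIs, higher ratios were those of Hist1h2bc, 0.896 (0.511 to 1.60) and 0.718 (0.552 to 0.932), and Hist1h1c, 0.512 (0.195 to 1.33) and 0.886 (0.546 to 1.44). In metformin Hist3h2ba had 0.853, Hist1h4i 0.687 and Hist1h2bj 0.5005. With fewer UMIs, 2 genes were above 1 in metformin with intervals that include 1, Hist1h4a at 1.14 (0.431 to 3.12) from 11 and 9 UMIs and the linker gene Hist1h1a at 1.496 (0.638 to 3.69) from 16 and 10. Of the genes with at least 20 UMIs, 4 of 6 in control and 15 of 26 in metformin had a ratio of at most 0.5 and none had one of at least 2. Over all genes, 6.9% in control and 4.26% in metformin had a ratio of at most 0.5, and 7.46% and 3.02% one of at least 2. At full depth, 17 of 23 and 47 of 53 had a ratio of at most 0.5, against 5.47% and 4.16% of all genes.

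Lists of related genes were followed through the same comparisons. In Top2a-positive against negative cells, 19 of 21 DNA replication genes measured in control and 19 of 22 in metformin had a ratio of at least 2, as had all 14 and 15 mitosis genes. Clspn, which guards replication forks, had 14.2 and 4.55, and the mitotic kinase gene Aurkb 28.8 and 7.36. Of genes for histone mRNA transcription and 3′ end processing, 4 of 12 passed in each library, against 10.7% of all genes in control and 8.06% in metformin. Slbp, whose protein binds the stem-loop, had 3.73 and 2.50, and Npat, a transcription coactivator of histone genes, 3.65 and 2.30. Of histone chaperones, which carry histones to DNA, 10 of 19 and 8 of 19 passed, with Asf1b at 20.3 and 5.43 and Chaf1b, a subunit of chromatin assembly factor 1, at 4.41 and 2.80. Of histone genes outside the clusters, 6 of 11 passed in each library, with Cenpa, the H3 variant of centromeres, at 9.89 and 4.61 and H2afx at 9.52 and 5.54. The genes named have the largest ratios of their lists. Median log2 ratios were 0.62 and 0.59 for transcription and 3′ end processing and 1.07 and 0.90 for chaperones. They were 2.07 and 1.10 for histone genes outside the clusters and 0.05 and 0.07 over all genes. In Pcna-only against Top2a-only metformin cells the lists parted: the median log2 ratio was 0.04 for DNA replication genes, -1.07 for the clustered histone genes and -1.88 for mitosis genes. Gins2 and Ung were at 2.57 and 2.26 there, and Ube2c was at 0.133. In control, with 10 replication genes measured, their median was -1.30, beside -1.54 for the clustered histone genes and -3.52 for mitosis genes.

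Between the libraries, 54 of the 61 clustered histone genes with at least 20 UMIs in keratinocyte-like cells had a ratio of metformin over control of at least 2 and none had one of at most 0.5. Over all genes, 13.2% had a ratio of at least 2 and 5.34% one of at most 0.5. The median log2 ratio was 2.07, beside 0.18 over all genes. Of the lists, all 15 mitosis genes (median log2 ratio 1.60) and 18 of 22 DNA replication genes (1.48) also had a ratio of at least 2. So had 6 of 11 histone genes outside the clusters, 4 of 19 histone chaperones and 2 of 13 transcription and 3′ end processing genes. Hist1h2ap had 5266 UMIs in control (124 CPM) and 29007 in metformin (468 CPM), a ratio of 3.76 (3.65 to 3.88). Hist1h2bp (5 and 84 UMIs), Hist1h2bk (14 and 206), Hist1h2bn (15 and 181), Hist1h3g (19 and 215) and Hist2h2bb (36 and 397) had the highest ratios, 11.5, 10.1, 8.25, 7.73 and 7.54. All but Hist2h2bb had fewer than 20 UMIs in control. The UMI limit for ranking is set on both libraries together, and these genes reached it only through metformin. In the order given, 41.7%, 73.6%, 82.9%, 51.0% and 0% of their 60-base stretches also occur in another gene of the set. Except for Hist2h2bb, the UMIs assigned to them are thus uncertain. The lowest ratios were those of Hist2h3c1 (1.02, interval 0.743 to 1.42), Hist2h3c2 (1.27), Hist1h2bc (1.42), Hist3h2a (1.43) and Hist2h2be (1.46). The keratinocyte-like cells of the libraries differed in make-up, with 31 and 1490 hair matrix-like cells, and in the share of cells with a Top2a UMI, 4.04% and 9.90%. Without the hair matrix-like cells, 39 of 58 genes had a ratio of at least 2, against 6.19% of all genes. The ratio of Hist1h2ap was 2.62, that of Hist1h2ae 2.08 and that of Hist1h2bc 1.20. There 14 of 15 mitosis genes and 0 of 22 DNA replication genes had a ratio of at least 2. Median log2 ratios were 1.25 for the clustered histone genes, 1.13 for mitosis genes and 0.52 for DNA replication genes. Among cells with a Top2a UMI, thinned, 12 of 24 had a ratio of at least 2, against 11.9% of all genes, and 6 of 14 without the hair matrix-like cells, against 5.96%. These counts changed with another random thinning, to 8 of 26 against 12.2% and, without the hair matrix-like cells, to 0 of 14 against 6.12%. In the Top2a-positive cells of the first thinning Hist1h2ae had a ratio of 1.035 (0.884 to 1.22) and Hist1h2ap 1.67 (1.45 to 1.92), and in the other 1.11 (0.945 to 1.31) and 1.29 (1.14 to 1.46). Among cells with neither a Top2a nor a Pcna UMI, 28 of 36 had a ratio of at least 2, against 8.02% of all genes. So had all 15 mitosis genes and 16 of 22 DNA replication genes. Their median log2 ratios were 1.69 and 1.27, beside 1.60 for the clustered histone genes. Of histone genes outside the clusters 5 of 11 passed, of chaperones 3 of 19 and of transcription and 3′ end processing genes 0 of 12. These cells include hair matrix-like ones, and a missing UMI at this depth does not show that a cell was not dividing.

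Within basal epidermis-like cells, 1749 in control and 2754 in metformin, the ratios were smaller. A ratio of at least 2 was found for 16 of 55 genes, against 1.12% of all genes, and for none a ratio of at most 0.5, against 1.46% of all genes. The median log2 ratio was 0.74, beside 0.02 over all genes, and 92.7% of the measured histone genes were above 1. Hist1h2ap had 3974 UMIs (242 CPM) and 10565 (428 CPM), a ratio of 1.77 (1.71 to 1.84). Hist1h2bm had 41 and 164 UMIs, a ratio of 2.66 (1.88 to 3.85), and Hist1h2bj 121 and 489, a ratio of 2.69 (2.20 to 3.31). Hist1h2ae had 1.41, Hist1h1e 1.62, Hist1h1b 1.26 and Hist1h2bc 1.05 (0.980 to 1.12). Without the cluster led by Vsnl1, 15 of 55 genes had a ratio of at least 2, against 1.45% of all genes, the median log2 ratio was 0.75, and the ratio of Hist1h2ap was 1.75 (1.69 to 1.82). DNA replication genes lay on the other side of 1 in the same cells. None of 22 had a ratio of at least 2, their median log2 ratio was -0.26 and 13.6% of them were above 1, with Mcm2, a subunit of the replicative helicase, at 0.550, Mcm3 at 0.653 and Gins2 at 0.655. Mitosis genes were all above 1 with none at 2 and a median of 0.53, with Plk1 at 1.78 and Ccnb1 at 1.59. Histone chaperones had a median log2 ratio of -0.01, genes for histone mRNA transcription and 3′ end processing -0.02 and histone genes outside the clusters 0.17. The share of basal epidermis-like cells with a Top2a UMI after thinning was 8.03% in control and 10.3% in metformin and that with a Pcna UMI 9.40% and 7.86%, and their part in these ratios was not tested. The cluster led by Ube2c made up 244 of the control and 547 of the metformin cells of the class. Its summed histone level was 2686 and 3289 CPM. There Hist1h2ap had 1012 and 1341 CPM, Hist1h2ae 689 and 731 and Hist1h1b 171 and 166. In the cluster led by Fcgbp, Dlk2 and Epgn (1264 and 1961 cells) the summed level was 168 and 199 CPM. In that led by Vsnl1 it was 583 and 791, and in the whole class 749 and 1159 CPM. The part of this make-up in the ratios was not tested.

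**Figure D5:**
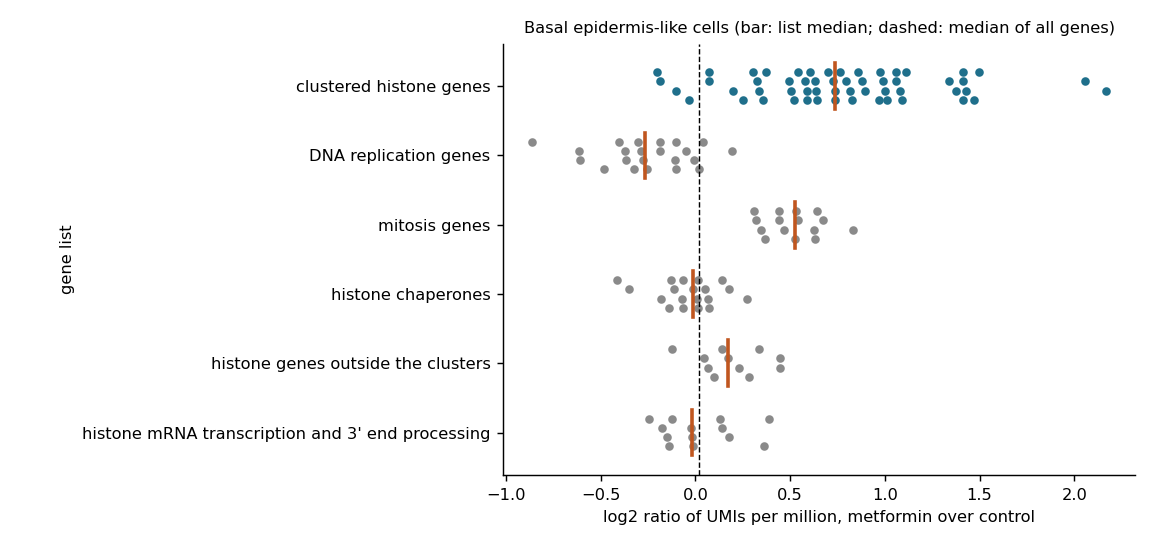
Log2 ratio of the CPM in metformin over control basal epidermis-like cells, 1 point per gene with at least 20 UMIs, for the clustered histone genes and the other lists, with the list median as a bar and the median of all genes as a dashed line. The median is 0.74 for the clustered histone genes, -0.26 for DNA replication genes and 0.53 for mitosis genes.

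Other classes held fewer measured genes. In hair follicle stem or germ-like cells, 9 of 36 genes had a ratio of at least 2, against 9.17% of all genes, and 1, Hist1h2bh with 14 UMIs in metformin and 8 in control, had one of at most 0.5, against 3.53%. The median log2 ratio was 0.23, beside 0.20 over all genes. There Hist1h2ap had 414 and 487 CPM, a ratio of 1.18 (1.08 to 1.28), while Hist1h2bc had 112 and 212 CPM, a ratio of 1.90 (1.61 to 2.24). In basal epidermis-like cells the ratio of Hist1h2ap was the larger of these 2 and here it was the smaller, with intervals apart in both. In T cell-like cells, 10 of 30 had a ratio of at least 2, against 2.17% of all genes, with Hist1h2ap at 230 and 442 CPM, a ratio of 1.92 (1.74 to 2.13), and Hist3h2a at 0.837 (0.659 to 1.06). A T cell-like cluster of 53 and 37 cells had Fcgbp, which also led a basal epidermis-like cluster, among its leading genes, and without it the summed level of the class was 848 and 1488 CPM. In fibroblast-like cells, 7 of 16 had a ratio of at least 2, against 2.95% of all genes. Hist1h2ap had 8.70 and 25.2 CPM there, a ratio of 2.90 (2.23 to 3.77), and Hist1h2bc 43.4 and 76.0 CPM, a ratio of 1.75 (1.54 to 1.99). Of mitosis genes, 11 of 14 reached 2 in fibroblast-like, 1 of 15 in T cell-like and 3 of 15 in hair follicle stem or germ-like cells. Of DNA replication genes, 3 of 21, 0 of 22 and 0 of 22 did. Of thinned fibroblast-like cells, 14.8% of 3229 control and 23.8% of 1281 metformin cells with neither Top2a nor Pcna had a histone UMI, as had 11.8% (7.56 to 17.4) of 186 and 26.4% (15.3 to 40.3) of 53 cells with Pcna only, and 9 control and 5 metformin cells had Top2a only. In T cell-like cells the share was 47.3% of 469 and 49.4% of 510 cells with neither gene, 49.5% (39.9 to 59.2) of 111 and 45.9% (35.0 to 57.0) of 85 cells with Pcna only, and 62.1% of 29 and 73.2% of 41 cells with Top2a only.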

How the data were processed

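Skin libraries of the agents control and metformin were analysed, with 1 library each. Per the file headers the authors made the raw UMI counts per gene and barcode with Cell Ranger 4.0.0, and the submitters' processing notes name the mouse build GRCm38. The counts were deposited without normalization. The set of clustered histone genes and the gene lists were chosen with earlier results of these data known.

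A barcode was kept from 300 genes and 800 UMIs upwards if no more than 8% of its UMIs were mitochondrial. No upper limit on genes was set, and doublets called by Scrublet (390 control and 681 metformin cells) were removed. Cells were clustered with scanpy 1.11.5 and leidenalg 0.10.2 at resolution 1 from 2000 variable genes that held no clustered histone gene, Top2a or Pcna, and clusters were named from markers of 24 cell types by a naming rule set after the clusters were seen. Counts were summed over the cells of a class and divided by their UMIs (CPM). For shares of cells and states, each cell was thinned to 1500 UMIs at random. Ratios were taken for genes with at least 20 UMIs in both sides together, with intervals from exact Poisson and binomial limits (scipy 1.17.1). They cover counting error only. Only the ratios per gene and their intervals were tested on simulated data, which held no spread between cells beyond counting error. Doublet calling, clustering, naming, states and correlations were not tested in this way.

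The genes named are Top2a and Pcna, the 12 clustered histone genes with most UMIs, the 5 highest and 5 lowest ratios in each comparison among those with at least 50 UMIs, and 2 to 4 genes of each list with the largest ratios. Others are named to account for a count of 5 or fewer or for a gene at 0, and these were chosen after their values were seen. Gene ends are from GENCODE M21 and promoters from RefSeq (GRCm38.p6).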

Additional observations from a re-analysis of the deposited data

How the results depend on the processing

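Values below are control first and metformin second where a pair is given. As reported, keratinocyte-like cells had 462 and 1372 CPM, fibroblast-like cells 130 and 252 CPM, Top2a-only cells exceeded cells with neither gene by 44.4 and 47.5 percentage points and Pcna-only cells by 9.37 and 17.3 points, 13 and 40 clustered histone genes had a ratio of at least 2 in Top2a-positive cells, 4 and 15 a ratio of at most 0.5 in Pcna-only against Top2a-only cells, and r over cells was 0.375 and 0.378 with Top2a and 0.160 and 0.165 with Pcna. The causes of the changes below were not tested. As reported, these counts were 13 of 16 and 40 of 43, against 10.7% and 8.06% of all genes, and 4 of 6 and 15 of 26, against 6.9% and 4.26%. The number of genes measured changes with the setting. For most other settings that number and the share over all genes are not given here. Their counts alone do not show whether the clustered histone genes differ from all genes. With an upper limit of 3000 genes per cell, the CPM were 303.6 and 843.8 in keratinocyte-like and 108.0 and 218.7 in fibroblast-like cells, the Top2a-only differences 27.85 and 38.86 points, the Pcna-only difference in metformin 8.433 points, the genes higher in Top2a-positive control cells 8, those lower in Pcna-only control cells 2, r with Top2a in control 0.3151, and r with Pcna 0.1185 and 0.1323. With mitochondrial shares up to 20%, the Top2a-only difference in metformin was 42.1 points and r with Pcna there 0.2032. With doublets kept, keratinocyte-like cells had 450.8 and 1388 CPM and fibroblast-like cells of metformin 276.8 CPM, the Top2a-only difference in metformin was 40.36 points, 8 genes were lower in Pcna-only metformin cells, and r with Top2a was 0.4236 and 0.3517. With the histone genes allowed among the variable genes, fibroblast-like control cells had 116.8 CPM, r in control was 0.4242 with Top2a and 0.09781 with Pcna, and the Top2a-only difference in metformin was 40.33 points.

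Thinned to 3000 UMIs, the Top2a-only differences were 33.07 and 35.41 points, 9 and 29 genes were lower in Pcna-only cells, and r was 0.5433 and 0.445 with Top2a and 0.2246 and 0.2446 with Pcna. Not thinned, the Top2a-only differences were 20.32 and 23.43 points, the Pcna-only difference in metformin 8.277 points, 36 genes were higher in Top2a-positive control cells, 17 and 47 were lower in Pcna-only cells, and r was 0.682 and 0.6416 with Top2a and 0.4598 and 0.5142 with Pcna. With at least 2 UMIs asked of a positive cell, the Top2a-only differences were 53.05 and 53.64 points, the Pcna-only differences 40.59 and 27.89 points, and 1 and 4 genes were lower in Pcna-only cells. Over cells of every class, 24 genes were higher in Top2a-positive control cells, 1 was higher in Pcna-only control cells, and the Top2a-only difference in metformin was 43.78 points. There the log2 ratio of Hist1h1c between Top2a-positive and negative control cells was -0.0025, the only value that changed sign. With at least 5 UMIs per gene, 29 genes were higher in Top2a-positive control cells, 1 was higher in Pcna-only control cells, and 8 and 33 were lower in Pcna-only cells. With at least 50 UMIs, 6 and 24 were higher in Top2a-positive cells and 2 and 8 lower in Pcna-only cells.

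These alternatives were chosen after seeing the data. With another random thinning, r in control was 0.4718 with Top2a and 0.113 with Pcna. Without hair matrix-like cells, keratinocyte-like cells had 442.8 and 899.4 CPM, and in metformin the Pcna-only difference was 9.978 and the Top2a-only difference 51.73 points, 25 genes were higher in Top2a-positive cells, and r was 0.4401 with Top2a and 0.1255 with Pcna. Without them and with another thinning, r was 0.4753 and 0.4243 with Top2a and 0.1125 and 0.1317 with Pcna, and in metformin the Pcna-only difference was 8.13 points and 22 genes were higher in Top2a-positive cells. Among all keratinocyte-like cells with a Top2a UMI, 8 of 26 genes had a ratio of metformin over control of at least 2 with another thinning. This was in place of 12 of 24, and 12.2% and 11.9% of all genes had such a ratio. Among those without hair matrix-like cells it was 0 of 14 in place of 6 of 14, against 6.12% and 5.96% of all genes. Settings that change which cells are kept also draw a new thinning. Clustering at resolution 2 moved none of these values beyond the limits above. Of the further values, 241 stayed within their interval or 1.5 times the count, and 112 moved without a change of sign. In Top2a-positive against negative cells of the control library, few cells (167) set how firm a value is. No paired analysis was possible because each agent has 1 library.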
